A study of Homo sapiens with 2 samples.

Results

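Endothelin-1 (EDN1), vascular endothelial growth factor A (VEGFA), basic fibroblast growth factor (FGF2), the inducible prostaglandin synthase cyclooxygenase-2 (PTGS2), the transcription factor ETS1 and the co-receptor endoglin (ENG) were followed in HepG2 cells under fluid shear stress (FSS). They were taken by gene symbol, as 6 of the 11589 gene symbols in the deposited table, and they accounted for 20 of its 34714 transcripts. All 6 genes stand in the list of migration genes that the study drew from these same libraries, and EDN1 and ETS1 were also measured by it with RT-qPCR as targets of YAP, a co-activator of transcription. Counts of how many of the 6 were higher or lower are therefore descriptions and not independent evidence.

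HepG2 is a human liver cancer line, which the study used as a line of hepatocellular carcinoma, and both groups were labelled as this line at passage 10 to 15. FSS is the drag that a moving fluid exerts on a cell surface. FSS-HepG2 cells were exposed to it for 8 h, and the other group was statically cultured HepG2 cells. Each group was 1 library of total RNA made from 3 mixed replicates, so no difference between the libraries has a replicate check and no p-value is given. The study named EDN1 and ETS1 among YAP target genes that it reported as verified by RT-qPCR with replicates, a separate assay whose values were not read here. HepG2 is a single cancer line, which limits what it stands for as a liver cell.

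In a vessel, EDN1 is a peptide that constricts smooth muscle, and its gene is known for its response to flow in endothelial cells. VEGFA and FGF2 are growth factors that act on receptor tyrosine kinases of neighbouring cells, and PTGS2 makes the precursor of prostaglandin E2, a lipid that cells release. ETS1 binds DNA at a GGAA core and is known for a role in vessel growth and invasion. ENG binds ligands of the TGF-beta family together with their signalling receptors, and is best known from endothelial cells.

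Expression was given as FPKM, the number of fragments scaled to the length of the transcript and to the mapped fragments of the library, so levels are per length and can be set beside each other. The level of a gene was the sum over its listed transcripts. Ratios are log2 ratios of FPKM + 1, FSS over static, and the mark for calling a gene or transcript higher or lower was 1.5-fold. Adding 1 makes the ratio of a low gene smaller than its FPKM ratio. Over both libraries the sums of all FPKM were nearly equal (323352 for FSS, 325712 for static), and how many reads stand behind them is unknown. The median log2 ratio was -0.25 for the 11221 genes that reached 0.5 FPKM in either library and -0.23 for the 7898 that reached 5 FPKM. Values named as centred are relative to the second of these medians. GAPDH and ACTB, often used as reference genes, had log2 ratios of 0.18 and 0.10. Of 12 genes of hepatocytes only AMBP was in the table, at 0.058 FPKM in FSS cells and listed at 0 in static cells. This marker was thus almost absent from both libraries and does not bear out the labelled cell type. The other 11 were not analysed here, so the cells are named HepG2 by their labels alone.

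The forms of ETS1 and ENG differ at exon junctions, and the sequences across these junctions are shown first because the results turn on which form was listed. Structures are those of GENCODE release 29 (GRCh38), matched by transcript name, while the authors' values were made on hg19 and the table carries no coordinates. Each sequence is transcript sequence, 5' to 3', with 15 bases on either side of the junction, and the capitals mark the bases after it. The first 2 lines are the start and the end of an ETS1 exon of 261 bases.
ETS1-201, start of the 261-base exon: ggaggaccagtcgtgGTAAACTCGGGGGCC
ETS1-201, end of the 261-base exon: tagctggctacacagGCAGTGGACCAATCC
ETS1-204, 261-base exon skipped: ggaggaccagtcgtgGCAGTGGACCAATCC
ETS1-208, first exon joined to the 261-base exon: ttttcccctccccggGTAAACTCGGGGGCC
ENG-202, last intron removed: tctactcgcacacgcGTTCCCCCAGCAAGC
ENG-201, last intron kept: tctactcgcacacgcGTGAGTACCCCAGGC

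Read down these lines, ETS1-204 has the bases before the exon and the bases after it with nothing between them. ETS1-208 joins its first exon directly to the 261-base exon and leaves out the exons that lie between them in ETS1-201. In these models the first exon of ETS1-208 ends at the same base as that of ETS1-201. ENG-201 runs on into an intron of 136 bases where ENG-202 is spliced. The 2 listed forms of FGF2 are annotated there with the same 3 exons and the same junctions, and differ only at their ends.

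Of the 6 genes, 4 were higher in FSS cells by the 1.5-fold mark (FGF2, ETS1, PTGS2 and EDN1), 1 was lower (ENG) and VEGFA lay within it. Over all genes tested the same mark was passed upwards by 10.5% and downwards by 29.5%. After centring these became 17.8% and 17.9%, and the 6 genes kept the same calls. The median log2 ratio of the 6 genes was 0.78, or 1.01 centred, against -0.25 over all genes. The 6 stand in a list drawn by a 1.5-fold mark on these libraries, so this contrast was partly given in advance. VEGFA stands in that list too, although its summed level lay within the mark here, so the calls made here are not the study's own calls. Together they summed to 76.2 FPKM in FSS cells and 63.1 FPKM in static cells.

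**Figure D1:**
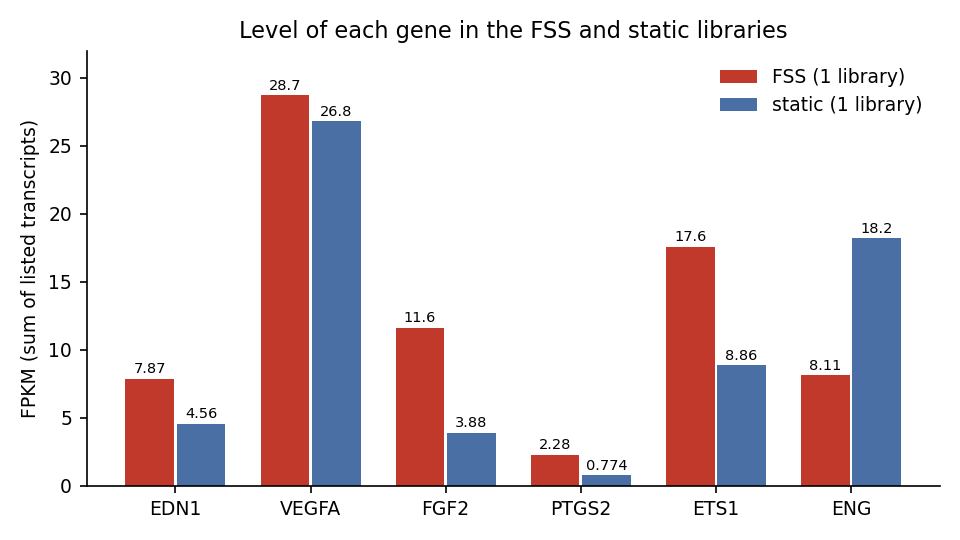
Bars give the level of each gene in FPKM, summed over its listed transcripts, in the single FSS library (red) and the single static library (blue), and there are no error bars because each group is 1 library. ENG is the one gene with the lower bar in FSS cells, and the bars of VEGFA, at 28.7 FPKM in FSS cells and 26.8 FPKM in static cells, are nearly level.

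The order of the levels changed between the libraries. In FSS cells it was VEGFA, ETS1, FGF2, ENG, EDN1 and PTGS2, and in static cells VEGFA, ENG, ETS1, EDN1, FGF2 and PTGS2. VEGFA was highest and PTGS2 lowest in both. The first place of VEGFA rested on VEGFA-220, at 17.0 FPKM in FSS cells and 16.0 FPKM in static cells, whose annotated coding start is incomplete. With the FPKM of each form weighted by its length, VEGFA was not first, at 46.4 in FSS cells and 44.2 in static cells. ETS1 (54.4) and FGF2 (54.3) then lay above it in FSS cells, and ENG (55.7) in static cells. ENG was the second gene in static cells and the fourth in FSS cells, while FGF2 was the third in FSS cells and the fifth in static cells. With no spread between replicates it cannot be said which neighbours in these orders differ.

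**Figure D2:**
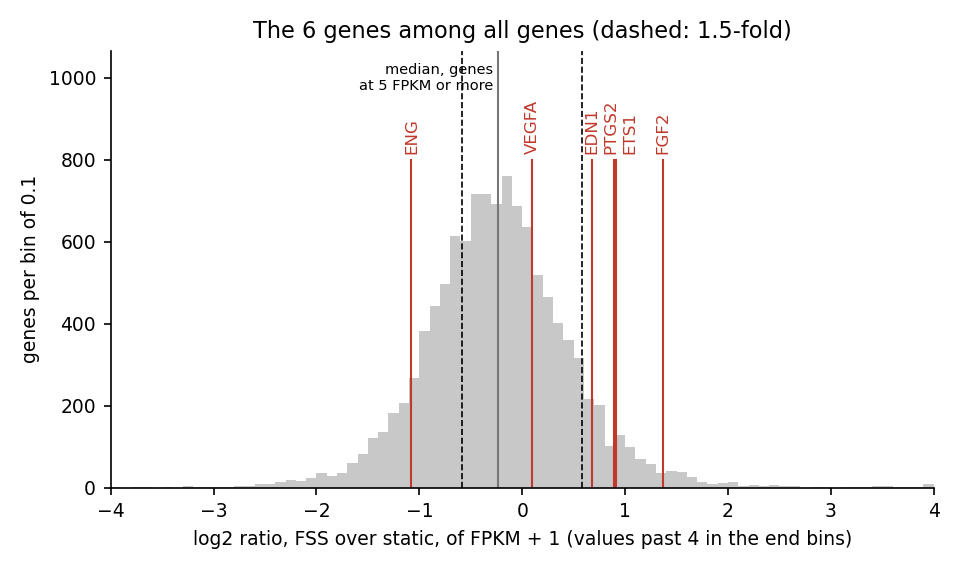
Grey bars count the genes in each bin of 0.1 of the log2 ratio (FSS over static, FPKM + 1) among 11221 genes, red lines mark the 6 genes, dashed lines the 1.5-fold mark and the grey line the median over genes that reached 5 FPKM. FGF2 lies farthest right at 1.37 and ENG farthest left at -1.08, while VEGFA at 0.09 lies between the dashed lines.

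Among the ligands, FGF2 (chromosome 4, 122826708 to 122898236, plus strand, GRCh38) had the highest ratio. It was at 11.6 FPKM in FSS cells and 3.88 FPKM in static cells, a log2 ratio of 1.37, and 2.02% of all genes had a higher one. The whole of this difference lay in the form FGF2-202, which was at 8.45 FPKM in FSS cells and 0.196 FPKM in static cells, the second of these under the 0.5 FPKM minimum. FGF2-201 was at 3.18 FPKM in FSS cells and 3.69 FPKM in static cells, a log2 ratio of -0.17. FGF2-202 thus made up 72.7% of the FGF2 level in FSS cells and 5.04% in static cells, and the most abundant form was FGF2-202 in FSS cells and FGF2-201 in static cells.

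FGF2-202 is annotated with 155 codons and 3071 bases after the last codon, and FGF2-201 with 288 codons and 5843 such bases, and FGF2-202 starts 123 bases further along the gene. FGF2 proteins of several sizes are known to arise from one RNA by use of different start codons, the shortest being the secreted growth factor. In these models both forms share every junction, so that only reads at the ends tell them apart. The table carries an earlier version of the FGF2 gene model than GENCODE release 29, and matching was by name, so the forms behind its values may have had other ends or lengths than those given here.

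NUDT6 lies on the opposite strand and overlaps FGF2, and whether the library kept strand is not given in the sources used here, so reads of the shared stretch cannot be told apart. NUDT6 was at 0.705 FPKM in FSS cells and 2.68 FPKM in static cells, a log2 ratio of -1.11. VEGFA and ENG are overlapped in the same way by AL136131.3 and AL162586.1, which were not analysed here. Weighting each form by its length, which makes the sum proportional to fragments, gave 54.3 for FGF2 in FSS cells and 25.7 in static cells, a ratio of 2.11, against a ratio of 3.00 in FPKM.

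EDN1 (chromosome 6, 12290363 to 12297194, plus strand, GRCh38) was listed as 1 form of 212 codons. Its level was 7.87 FPKM in FSS cells and 4.56 FPKM in static cells, a log2 ratio of 0.67, or 0.91 centred, and 8.62% of all genes had a higher ratio. On the scale used the difference was 1.60-fold, not far past the 1.5-fold mark, and with 5 FPKM added in place of 1 the log2 ratio of 0.43 lay within it.

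VEGFA (chromosome 6, 43770184 to 43786487, plus strand, GRCh38) was listed as 10 forms, of which 7 reached 0.5 FPKM. Its sum was 28.7 FPKM in FSS cells and 26.8 FPKM in static cells, a log2 ratio of 0.09, or 0.33 centred. Only VEGFA-201 passed the 1.5-fold mark, at 1.57 FPKM in FSS cells and 0.496 FPKM in static cells. It is annotated with a first exon of its own, which starts 1779 bases after the first start of the listed forms, and it encodes 163 codons. The other 9 forms summed to 27.1 FPKM in FSS cells and 26.3 FPKM in static cells, and their log2 ratios ran from -0.19 to 0.08.

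The most abundant VEGFA form was VEGFA-220 in both libraries, with 59.1% of the level in FSS cells and 59.7% in static cells. Its annotated coding start is incomplete, so its FPKM rests on a partial model. With FPKM weighted by length, VEGFA-220 took 35.5% in FSS cells and 35.2% in static cells. VEGFA-205 was then the first form in both libraries, with 47.3% in FSS cells and 48.4% in static cells. VEGFA-205, with 371 codons, was at 6.20 FPKM in FSS cells and 6.05 FPKM in static cells. VEGFA forms are known to differ in exons that let the protein bind heparin. An exon of 132 bases was absent from forms making up 62.1% of the VEGFA level in FSS cells and 62.9% in static cells, and an exon of 72 bases from 37.1% in FSS cells and 35.7% in static cells. These are shares of FPKM not weighted by length, and most of the share without the 132-base exon was VEGFA-220.

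PTGS2 (chromosome 1, 186671791 to 186680427, minus strand, GRCh38) was listed as 1 form of 604 codons, at 2.28 FPKM in FSS cells and 0.774 FPKM in static cells. The log2 ratio was 0.89, or 1.12 centred, and 5.57% of all genes had a higher one. With 5 FPKM added in place of 1 the log2 ratio was 0.34, within the mark. PTGS2 was the lowest of the 6 genes, and 76.9% of all genes had a higher level in FSS cells and 94.5% in static cells.

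ETS1 (chromosome 11, 128458761 to 128587558, minus strand, GRCh38) was at 17.6 FPKM in FSS cells and 8.86 FPKM in static cells, a log2 ratio of 0.91, with 5.31% of all genes at a higher ratio. Its 4 listed forms did not move together. ETS1-201, which holds the 261-base exon and has 441 codons, was at 8.90 FPKM in FSS cells and 2.002 FPKM in static cells, a log2 ratio of 1.72. ETS1-204, which skips the 261-base exon and so lacks 87 codons, was at 3.15 FPKM in FSS cells and 4.85 FPKM in static cells, a log2 ratio of -0.50 that did not reach the 1.5-fold mark.

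The exon that ETS1-204 skips is known to hold part of the region by which ETS1 holds back its own binding to DNA. This form took 17.9% of the ETS1 level in FSS cells and 54.8% in static cells, while ETS1-201 took 50.7% in FSS cells and 22.6% in static cells. The most abundant form was thus ETS1-201 in FSS cells and ETS1-204 in static cells. With FPKM weighted by length, ETS1-204 took 19.6% in FSS cells and 54.6% in static cells and remained the first form in static cells. In FSS cells the order changed under this weighting, since ETS1-208 took 41.7% there (30.6% in static cells) and ETS1-201 36.5% (14.8% in static cells), so that ETS1-208 was the first form.

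ETS1-208 is a short form of 4 exons and 225 codons that keeps the 261-base exon and the exons after it, where the DNA-binding domain lies. It was at 4.94 FPKM in FSS cells and 2.004 FPKM in static cells, a log2 ratio of 0.98. ETS1-207, which uses only the first 51 bases of the 261-base exon, was at 0.578 FPKM in FSS cells and listed at 0 in static cells. It counts among the higher transcripts on the scale used.

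**Figure D3:**
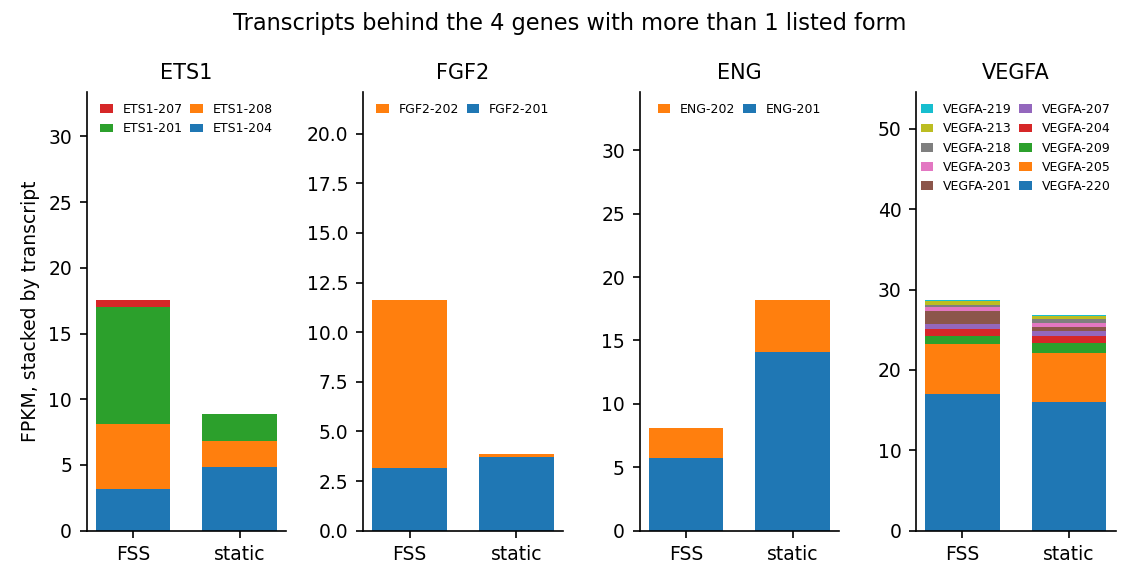
Stacked bars give the FPKM of each listed transcript of ETS1, FGF2, ENG and VEGFA in the FSS library (left of each pair) and the static library (right), with 1 library each and a separate axis for each gene. ETS1-201 (green) is 8.90 FPKM of the FSS bar and FGF2-202 (orange) 8.45 FPKM, while the VEGFA bars have nearly the same make-up.

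ENG (chromosome 9, 127815012 to 127854756, minus strand, GRCh38) was at 8.11 FPKM in FSS cells and 18.2 FPKM in static cells, a log2 ratio of -1.08, or -0.84 centred, and 9.56% of all genes had a lower ratio. Its 2 forms differ by the last intron, which is removed in the long form ENG-202 (658 codons) and kept in the short form ENG-201 (625 codons), so that the proteins end in different cytoplasmic tails. ENG-201 was at 5.77 FPKM in FSS cells and 14.1 FPKM in static cells, a log2 ratio of -1.16. ENG-202 was at 2.35 FPKM in FSS cells and 4.10 FPKM in static cells, a log2 ratio of -0.61, or -0.38 centred, which is within the mark. The short form was the larger share in both libraries, with 71.1% of the ENG level in FSS cells and 77.5% in static cells.

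Over the 20 listed transcripts, 17 reached 0.5 FPKM in at least 1 library, and of these 7 were higher, 2 were lower and 8 lay within 1.5-fold. Among the 7, FGF2-202, ETS1-207 and VEGFA-201 reached 0.5 FPKM in the FSS library alone, so they were tested only because they were high there. Of all 30339 transcripts tested, 18.4% were higher and 27.9% lower. The 2 lower transcripts were those of ENG, and after centring only ENG-201 remained past the mark. The most abundant form differed between the libraries for 2 of the 4 genes with more than 1 form, ETS1 and FGF2. Among the 6889 genes that had 2 or more listed forms and reached 2 FPKM in both libraries, a minimum chosen after seeing the values, 23.7% did so. The share of a form differed by at most 67.6 points for FGF2, 36.9 points for ETS1, 6.39 points for ENG and 3.62 points for VEGFA, and 24.9% of the 6889 genes had a form that differed by at least 25 points. Shares of forms are estimates from reads that several forms have in common, and reads across the junctions were not used here.

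**Figure D4:**
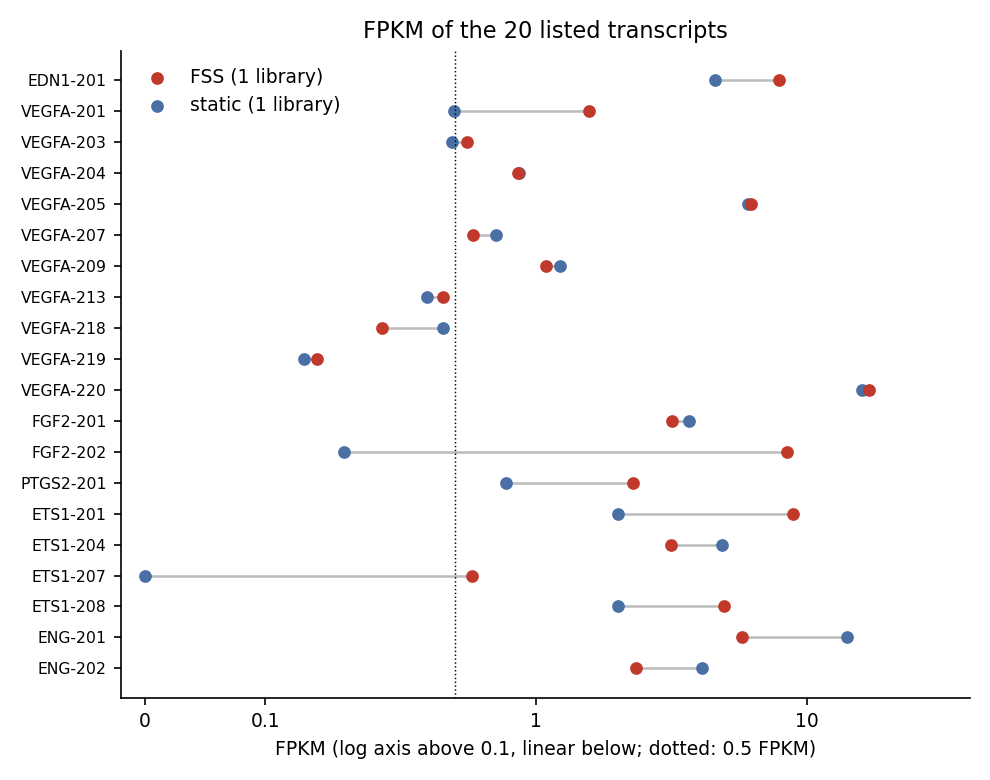
Points give the FPKM of the 20 listed transcripts in the FSS library (red) and the static library (blue), joined by a grey line, on an axis that is logarithmic above 0.1 FPKM and linear below it, with a dotted line at 0.5 FPKM. FGF2-202 has the longest line among transcripts seen in both libraries (8.45 FPKM in FSS cells and 0.196 FPKM in static cells), and ETS1-204 and FGF2-201 lie the other way from the remaining forms of their genes.

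The RT-qPCR primers of the study show which of these forms that assay can read, and are given 5' to 3' in lower case, with no part singled out.
EDN1 forward: cacctggacatcatttgggtc
EDN1 reverse: ttttcacggtctgttgccttt
ETS1 forward: gtcaacccagcctatcca
ETS1 reverse: ggctctgagaactccgatg

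On the GENCODE transcripts the EDN1 pair spanned 119 bases of EDN1-201. The ETS1 pair spanned 101 bases in ETS1-201, ETS1-204 and ETS1-207 and was not matched in ETS1-208, so it does not separate the form with the 261-base exon from the form without it. The 3 forms it matched summed to 12.6 FPKM in FSS cells and 6.86 FPKM in static cells, a log2 ratio of 0.80.

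The stretch before the start of transcription could be taken from RefSeq for 4 of the 6 genes, EDN1, FGF2, PTGS2 and ENG. The sequences of EDN1 and PTGS2 are shown, as the ligand gene and the enzyme gene whose windows held a match to a TATA box. They are written 5' to 3' on the strand of the gene, and the capitals mark the matches to the letters searched.
EDN1, chr6:12290111-12290360, plus strand, GRCh38.p14: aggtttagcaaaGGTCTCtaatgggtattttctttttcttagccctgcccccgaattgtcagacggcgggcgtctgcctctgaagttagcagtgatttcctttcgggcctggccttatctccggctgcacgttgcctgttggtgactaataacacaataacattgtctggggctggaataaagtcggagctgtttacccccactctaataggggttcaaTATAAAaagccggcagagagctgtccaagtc
PTGS2, chr1:186680428-186680673, minus strand, GRCh38.p14: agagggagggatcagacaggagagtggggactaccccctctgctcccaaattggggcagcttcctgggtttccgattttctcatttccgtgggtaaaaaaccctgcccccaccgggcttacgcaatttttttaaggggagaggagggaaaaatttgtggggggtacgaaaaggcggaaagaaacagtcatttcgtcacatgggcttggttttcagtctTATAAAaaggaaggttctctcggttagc

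Both strands were searched for the TATA box as TATAAA, for the site of AP-1 factors as TGANTCA and for the cAMP response element as TGACGTCA. The search also covered the site of TEAD, the DNA-binding partner of YAP, as GGAATG, that of ETS factors as GGAAGT, and the shear stress response element described in endothelial genes as GAGACC. The 2 matches in EDN1 were TATAAA, beginning 31 bases before the RefSeq start, and GGTCTC, which is GAGACC on the other strand, beginning 238 bases before it. In PTGS2 there was 1 match, TATAAA at 32 bases before the start, and no matches overlapped. The ENG window (152 bases outside exons) held 1 match, to the ETS letters on the other strand at 115 bases before the start, and the FGF2 window (127 bases) held none. Of 35116 RefSeq windows of the 250 bases before a start, 10.7% held the letters of the TATA box, 13.2% those of the shear stress element, 6.57% of AP-1, 1.65% of the cAMP response element, 11.9% of TEAD and 19.5% of ETS factors. A match describes the letters of a window and does not show a site in use.

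Genes of the pathways around the 6 were taken from 8 lists. Apart from the 6, these hold 166 genes, of which 90 were in the table and 84 reached 0.5 FPKM, and the remaining genes were not analysed here. Of the 84, 13 were higher and 28 lower in FSS cells, or 15.5% and 33.3%, against 10.5% and 29.5% of all genes. Their median log2 ratio was -0.27, near the -0.25 of all genes. After centring, 19 were higher and 18 lower, against 17.8% and 17.9% of all genes. The counts of single lists below are to be read beside these shares of all genes.

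In the endothelin list, 5 of 8 genes passed the filter, and EDN1 was the 1 that was higher. ECE1, the enzyme that cuts the endothelin precursor, was the 1 that was lower, at 20.4 FPKM in FSS cells and 43.1 FPKM in static cells. The receptors were near the floor of the table, with EDNRA at 0.343 FPKM in FSS cells and 0.764 FPKM in static cells, and EDNRB at 0.214 FPKM in FSS cells and 0.628 FPKM in static cells. ECE2, a related enzyme, had a log2 ratio of -0.28.

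Among VEGF ligands and receptors, 6 of 11 genes passed, 2 of them higher and 2 lower. NRP1, a co-receptor for VEGFA, was at 3.55 FPKM in FSS cells and 1.73 FPKM in static cells, and PGF, a related ligand, at 1.02 FPKM in FSS cells and 0.278 FPKM in static cells. NRP2, the other neuropilin, went the other way, at 1.14 FPKM in FSS cells and 4.82 FPKM in static cells. VEGFB was at 25.3 FPKM in FSS cells and 39.0 FPKM in static cells, and was within the mark after centring. VEGFC had a log2 ratio of -0.31. The kinase receptors FLT1 and KDR were not analysed here.

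In the FGF list, 13 of 35 genes passed, and FGF2 was the only 1 that was higher, while 6 were lower (2 and 3 after centring). FGFBP1, a carrier protein that releases FGF2 from the matrix, had the lowest ratio, at 1.06 FPKM in FSS cells and 5.30 FPKM in static cells. The receptor FGFR3 was at 1.37 FPKM in FSS cells and 5.18 FPKM in static cells, and the receptor FGFR4 at 7.13 FPKM in FSS cells and 12.0 FPKM in static cells. FIBP, an intracellular protein that binds FGF1, had a log2 ratio of -0.62. FGFR1 and FGFR2 were not analysed here.

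In the prostaglandin list, 14 of 29 genes passed, with 2 higher and 5 lower. PLA2G4A, the phospholipase that frees the arachidonic acid on which PTGS2 acts, was at 2.66 FPKM in FSS cells and 10.2 FPKM in static cells, a log2 ratio of -1.61. PLA2G4C was listed at 0 in FSS cells and at 1.25 FPKM in static cells. Of the enzymes that turn the product of PTGS2 into prostaglandin E2, PTGES was at 15.5 FPKM in FSS cells and 14.7 FPKM in static cells, PTGES2 at 5.79 FPKM in FSS cells and 12.8 FPKM in static cells, and PTGES3, also a co-chaperone of HSP90, at 325 FPKM in FSS cells and 223 FPKM in static cells. The log2 ratio of PTGES3 was 0.54, just short of the mark, and it passed after centring. AKR1B1, an aldose reductase that can make prostaglandin F2-alpha, was the other higher gene, at 68.2 FPKM in FSS cells and 43.7 FPKM in static cells. TBXA2R, the thromboxane receptor, had a log2 ratio of -0.98, and HPGD and the prostaglandin E2 receptors PTGER1 to PTGER4 were not analysed here.

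In the ETS family, 17 of 28 genes passed, with 2 higher and 5 lower, and 3 and 4 after centring. ETV3, a repressor, was the higher gene beside ETS1, at 14.2 FPKM in FSS cells and 6.76 FPKM in static cells. ETV1 had the lowest ratio, at 0.880 FPKM in FSS cells and 5.05 FPKM in static cells, and the repressor ERF was at 9.46 FPKM in FSS cells and 23.9 FPKM in static cells. ELF3, an epithelial member, had a log2 ratio of -1.04, and ETV2 of -0.96. ETS2, the nearest relative of ETS1, was at 36.4 FPKM in FSS cells and 26.2 FPKM in static cells, a log2 ratio of 0.46, or 0.69 centred. ETS1 therefore stood below ETS2 in both libraries.

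Of the receptors, co-receptors and ligands of the TGF-beta family, 15 of 25 genes passed, and none was higher while 6 were lower, or 2 higher and 5 lower after centring. Over all genes 10.5% were higher and 29.5% lower, or 17.8% and 17.9% after centring. ENG was not alone among the lower genes of this list. TGFBR2, the type II receptor, was at 4.03 FPKM in FSS cells and 14.8 FPKM in static cells, and TGFBR3, the co-receptor betaglycan, which is related to ENG, at 2.25 FPKM in FSS cells and 7.93 FPKM in static cells. TGFBR1 was at 32.9 FPKM in FSS cells and 65.9 FPKM in static cells, and ACVR2B was listed at 0 in FSS cells and at 1.45 FPKM in static cells. BMPR2 had a log2 ratio of -0.58, just inside the mark, and ACVRL1, the receptor with which ENG acts in endothelial cells, was not analysed here. Without ENG, 5 of the other 14 genes were lower, with a median log2 ratio of -0.35, against -0.25 for all genes.

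Other secreted angiogenic and growth factors had the widest range, with 6 of 15 higher and 4 lower, and 6 and 1 after centring. CXCL8, the chemokine interleukin-8, was at 176 FPKM in FSS cells and 1.59 FPKM in static cells. THBS1, a matrix protein that restrains vessel growth, was at 10.5 FPKM in FSS cells and 0.806 FPKM in static cells. LIF, a cytokine, was at 17.1 FPKM in FSS cells and 4.89 FPKM in static cells, and ADM, a peptide that widens vessels, at 18.3 FPKM in FSS cells and 6.63 FPKM in static cells. ANG, a secreted ribonuclease, was lower, at 1.92 FPKM in FSS cells and 5.66 FPKM in static cells.

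A list of matrix proteases and their inhibitors often given as targets of ETS1 had 5 of 13 genes past the filter. TIMP1, an inhibitor of metalloproteases, was at 385 FPKM in FSS cells and 256 FPKM in static cells, at the mark itself with a log2 ratio of 0.59. MMP1 was at 0.504 FPKM in FSS cells and listed at 0 in static cells, and so passed the filter through the FSS library alone. PLAUR, the urokinase receptor, and the integrin subunit ITGA5 had log2 ratios of 0.42 and 0.24.

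**Figure D5:**
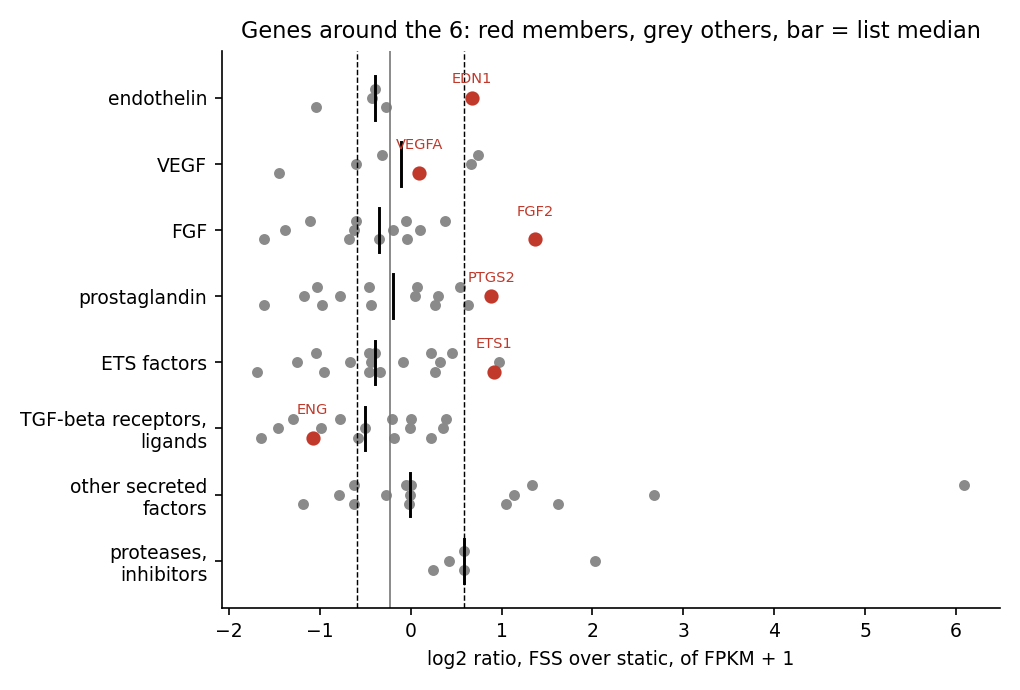
Each point is the log2 ratio (FSS over static, FPKM + 1) of 1 gene that passed 0.5 FPKM, in rows by list, with the 6 genes in red, the others in grey, a black bar at the median of each list, dashed lines at 1.5-fold and a grey line at the median over genes that reached 5 FPKM. FGF2 (1.37), PTGS2 (0.89) and EDN1 (0.67) are the rightmost points of their lists, while ENG (-1.08) lies among TGF-beta receptors on the left.

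Several of the 6 genes are known from cells other than hepatocytes, so markers of such cells were read as well. In bulk RNA, fewer cells of a type and less RNA per cell cannot be told apart. Of 12 endothelial markers, 2 were in the table, CDH5 at 0.634 FPKM in FSS cells and 0.818 FPKM in static cells and EGFL7 at 12.4 FPKM in FSS cells and 11.0 FPKM in static cells, and they summed to 13.0 FPKM in FSS cells and 11.8 FPKM in static cells. Of 8 markers of fibroblasts and stellate cells, 5 were in the table, and their sum was 15.5 FPKM in FSS cells and 44.8 FPKM in static cells. This sum was lower in FSS cells, as was ENG, while the endothelial sum was not. COL1A1, at 5.15 FPKM in FSS cells and 28.0 FPKM in static cells, gave most of the fibroblast and stellate sum in static cells. The 5 did not move together, as 3 were lower and 1 was higher, against 29.5% and 10.5% of all genes. After centring 2 were lower and 1 was higher, against 17.9% and 17.8% of all genes. The higher one was DCN, at 0.907 FPKM in FSS cells and listed at 0 in static cells. Of 6 leukocyte markers, CD68 and CD14 were in the table and summed to 6.06 FPKM in FSS cells and 1.70 FPKM in static cells. The part of any such cells in the values of the 6 genes was not tested, and the other markers were not analysed here.

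Genes with the most similar levels were found by the distance between log2(FPKM + 1) values over the 2 libraries, a measure that with so few points describes a pair of levels and no more. The nearest were RPS6KA4, TRIB1 and SLC25A33 for EDN1, TRIM25, FAM177A1 and AXL for VEGFA, and IGHMBP2 and GOLGB1 for FGF2. They were KCTD7, SLC25A16 and SLC22A15 for PTGS2, SLC25A32, KDM5A and PEF1 for ETS1, and MITF, TMEM243 and GLT8D1 for ENG. Within a distance of 0.1 there were 34 genes for VEGFA, 17 for ENG, 14 for EDN1, 8 for ETS1, 3 for PTGS2 and 2 for FGF2.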

How the data were processed

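The RNA of FSS-HepG2 cells (8 h) and of statically cultured HepG2 cells was sequenced as 1 library each. The values the authors deposited are FPKM of single transcripts. Reads were handled on hg19 with HISAT2 2.0.5, StringTie, STAR 2.5.2b and cutadapt according to the submitters' processing notes, which give no order, and the methods of the study add Ballgown, with a minimum of 0.5 FPKM. FPKM hold no counts, so neither depth nor counting error can be given. Value columns with no sample numbered 0.

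FPKM were summed by gene symbol, and log2(FPKM + 1) of static cells was subtracted from that of FSS cells. A gene was kept if it reached 0.5 FPKM in either library. The steps were tested on simulated data. The members and gene lists were chosen with earlier results of these data known. Named genes were the 6, their transcripts, receptors and enzymes of their pathways, up to 5 genes per list with the largest absolute ratio, and the 3 nearest by level, and other markers were named after their values were seen. A few items that this rule or the structures would give are not reported here. Structures came from GENCODE release 29, in which 34075 of 34714 transcripts matched by name and gene, and promoters from RefSeq. Alternatives were another pseudocount or none, centring, rescaling, the top transcript instead of the sum, other filters and a fold of 2. Weighting by length and leaving out VEGFA-220 were added after seeing the data. Calculations ran in pandas 2.3.3 and numpy 2.4.6 under Python 3.11.15, with plots from matplotlib 3.10.9.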

Additional observations from a re-analysis of the deposited data

How the results depend on the processing

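With 1 library per group no replicate could be left out, and the read depth is unknown. No paired analysis was possible because each group is 1 library and no test was run. No ratio changed sign past the mark under any alternative. The counts of the 6 genes (4 higher, 1 lower) were 4 and 1 also with a pseudocount of 0.1 or none, after centring, after rescaling, with the highest transcript, without VEGFA-220 and with FPKM weighted by length, the last 2 added after seeing the data. Rescaling raised both libraries to the same larger sum with 1 still added. As their sums were already nearly equal, it acted mainly as a smaller pseudocount and was not a check of library scale. With a pseudocount of 5, 2 were higher (FGF2 and ETS1) and 1 lower, since EDN1 had a log2 ratio of 0.43 and PTGS2 of 0.34. With a fold of 2, 1 was higher (FGF2) and 1 lower (ENG). Over all these settings the log2 ratio ran from 0.43 to 0.91 for EDN1, 0.07 to 0.33 for VEGFA, 0.90 to 2.98 for FGF2, 0.34 to 1.56 for PTGS2, 0.70 to 1.72 for ETS1 and -1.17 to -0.82 for ENG. The member transcripts, 7 higher and 2 lower, were 2 and 1 with a pseudocount of 5, 2 and 1 with a fold of 2, and 7 and 1 after centring. All genes, 1180 higher and 3310 lower, were 664 and 1609 with a pseudocount of 5, 484 and 1278 with a fold of 2, and 2002 and 2012 after centring. The other genes of the lists, 13 higher and 28 lower, were 8 and 14 with a pseudocount of 5, 7 and 15 with a fold of 2, and 19 and 18 after centring. Their median log2 ratio of -0.27 was -0.13 with a pseudocount of 5 and -0.040 after centring. Of 128 recomputed counts of single lists, 35 moved by over 1.5 times. The share of FGF2-202 in static cells was 2.95% and that of ETS1-201 was 14.8% when weighted by length. Genes whose most abundant form differed were 21.4% at a minimum of 5 FPKM, also added after seeing the data.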
